A study of Mus musculus with 6 samples.

Results

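The genes described here encode the SR proteins, the hnRNPs, the protein parts of the small nuclear ribonucleoproteins (snRNPs), the SF3A and SF3B subunits and the U2AF subunits of the mouse. They were chosen by symbol alone, as the rows of the count table whose names begin with Srsf and a digit, Hnrnp, Snrp, Sf3a or Sf3b and a digit, or U2af. The rule uses no measured value, though the group was picked with earlier results of these data known. The rule found 54 of the 22740 genes in the table, namely 11 SR protein genes, 20 hnRNP genes, 12 snRNP protein genes, 8 SF3 genes and 3 U2AF genes. Expression was measured in B16-F3, a pigmented mouse melanoma line kept in culture, whose cells had been sorted by flow cytometry on the light scattered by their melanin. The high-pigmented cells (HPC) and the low-pigmented cells (LPC) gave 3 libraries each, numbered 1 to 3 in both populations. All 6 libraries come from this 1 line, and no source states whether equal numbers mark a shared culture or sort, so the p-values reflect how far these libraries scatter, and some or all of that scatter may be technical.

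Splicing removes introns from pre-mRNA in the spliceosome. The U1 snRNP pairs with the start of the intron, U2AF binds the polypyrimidine tract and the AG at its end, and the U2 snRNP, with its SF3A and SF3B subcomplexes, then engages the branch point. Most spliceosomal snRNAs carry a ring of Sm proteins. SR proteins bind exonic enhancers through RNA recognition motifs and recruit this machinery through domains rich in arginine and serine, and many hnRNPs bind silencers and oppose them, so that the balance of both groups shapes the choice of exons. Many of these genes limit their own level by splicing in an exon that sends the transcript to nonsense-mediated decay. In melanoma and other tumours, changes of splicing factor levels and mutations of SF3B1 are well known.

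The libraries were made with a kit that reads the 3′ ends of polyadenylated RNA, so a level in CPM, a gene's counts scaled to a common library size, does not depend on transcript length by design, and it is compared here between libraries for each gene. The libraries held 14695822 to 22186743 counts, of which the 54 genes took 0.891% to 1.23% and mitochondrial genes 2.07% to 3.21%. All 7 melanocyte lineage markers were expressed and summed to 33400 to 36800 CPM in HPC and 32200 to 34600 CPM in LPC, and 4 of 4 keratinocyte markers were at 0 throughout. Immune markers summed to 8.16 to 15.6 CPM in HPC and 3.78 to 8.77 CPM in LPC, with 3 of 6 at 0 (Ptprc, Cd3e and Itgam), endothelial markers to at most 0.356 CPM, with 2 of 4 at 0 (Cdh5 and Kdr), and fibroblast markers to 19.3 to 28.2 CPM in HPC and 17.5 to 34.2 CPM in LPC, with 3 of 6 above 1 CPM and Dcn at 1 read in all. Tyr, the tyrosinase gene that checks the sort, stood at 908, 855 and 994 CPM in HPC and 261, 62.2 and 238 CPM in LPC (replicates 1, 2 and 3, the order used for all values per library below). All HPC libraries were above all LPC libraries for Tyr. It did not pass the test (log2 fold change 2.30, SE 0.45, edgeR adjusted p = 0.17), nor that of limma-voom (adjusted p = 0.16). It passed in edgeR with the replicate number as a block (adjusted p = 0.021) and in DESeq2 without the block (adjusted p = 0.0092).

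Of the 54 genes, 52 passed the filter on low counts and were tested. The others were Srsf12, an SR protein gene, with 1 count in all 6 libraries together, and the row named Snrpn, with 1. Snrpn encodes an Sm protein that takes the place of SmB in neurons, but the identifier of this row, ENSMUSG00000000948, is named Gm38393 in GENCODE M21, so the row was not read as Snrpn expression. The 52 tested genes ranged from 11.4 to 1316 CPM in mean level, and 43 of them (82.7%) lay above the median of all 11921 tested genes, 38.7 CPM.

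Splicing factor and hnRNP genes stood at slightly lower levels in HPC than in LPC across most of the list, and no single gene passed the test. The log2 fold change, HPC over LPC, was negative for 49 of the 52 genes (94.2%) and positive for Srsf1, Hnrnph2 and Sf3a1, whereas 51.8% of all tested genes had a negative value. Many of the 52 genes moved together between libraries, so their signs are not separate observations of the populations. The median over the 52 genes was -0.14, against -0.0091 over all tested genes, and the values ran from -0.35 for Snrpa to 0.060 for Sf3a1. The median of their absolute log2 fold changes, 0.144, was about that of all tested genes, 0.142, and the values mostly shared a direction. None of the 52 exceeded 0.5 in absolute value, against 9.81% of all tested genes. These comparisons were not matched for mean level. The 117 other splicing genes described below had a median absolute value of 0.0927, and 0.855% of them exceeded 0.5.

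With edgeR's quasi-likelihood test and Benjamini-Hochberg adjustment over all tested genes, none of the 52 was called at an adjusted p under 0.05, where 0.0419% of all tested genes were called, and their adjusted p ran from 0.456 to 0.995. At an unadjusted p under 0.05, 2 of the 52 genes (3.85%) were lower in HPC, Snrpa and Snrpb2, against 4.31% of all tested genes, and none was higher, against 5.06%. DESeq2 (1.88% of all tested genes called) and limma-voom (0.0419%) called none of them either. Blocking on the replicate number, edgeR again called none of them, where it called 2.52% of all tested genes. The lowest blocked adjusted p was 0.118, for Snrpb2. At an unadjusted p under 0.05 the blocked fit had 14 of the 52 (26.9%) lower in HPC, against 8.66% of all tested genes, and none higher, against 10.1%. Of the settings run, only the blocked fit without the libraries numbered 1, which left 1 residual degree of freedom, called any of the 52. It called 7, all lower in HPC, where it called 24.5% of the 12018 genes it tested, namely Hnrnpa1, Snrpa, Snrpb2, Snrpd1, Snrpd2, Snrpe and Srsf5. All 95% intervals of the 52 log2 fold changes stayed within 2-fold in either direction, the widest reach being -0.86 for Snrpd2 and 0.37 for Srsf1. A p above the threshold does not show that the levels were equal.

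**Figure D1:**
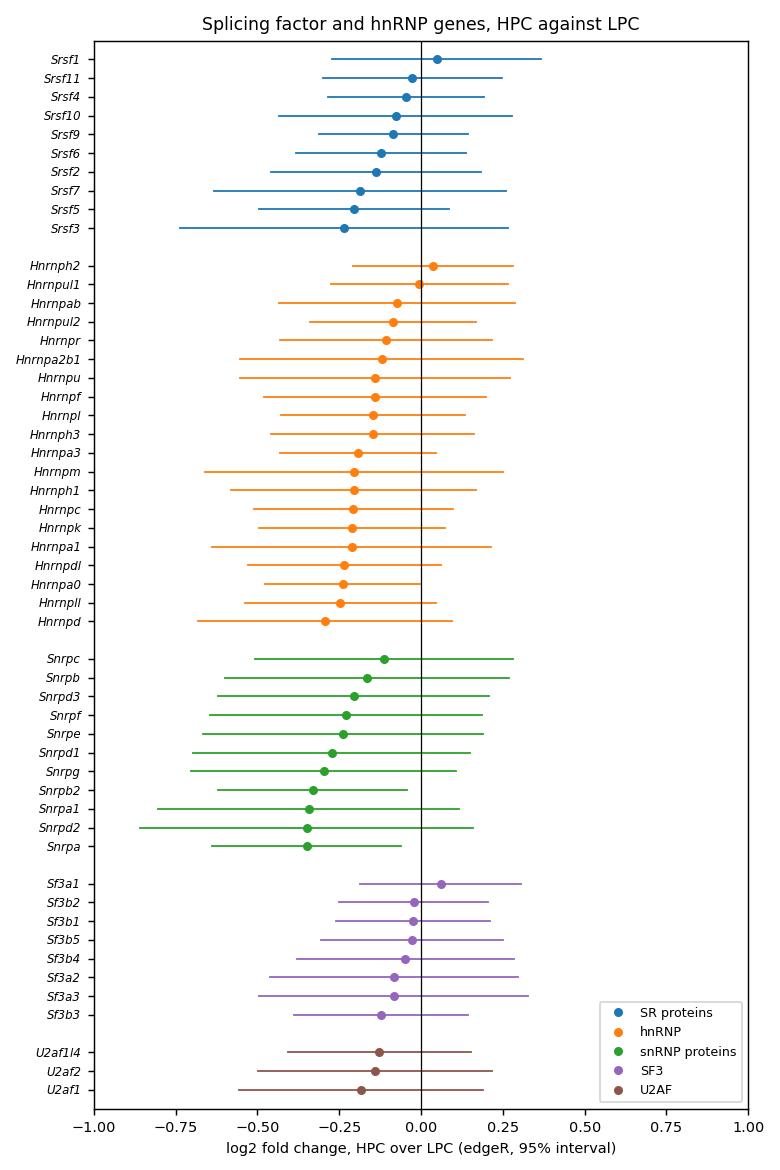
Log2 fold change, HPC over LPC, of the 52 tested genes (points) with 95% intervals from edgeR's quasi-likelihood fit (lines), grouped by family and coloured by it. Points lie left of 0 for 49 of the 52 genes, and only the intervals of Snrpa and Snrpb2 lie wholly below 0.

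The tilt towards LPC held in number with RLE, upper quartile or library size scaling, each with 49 of 52 negative values, and depended in size on single libraries. The median was -0.069 without HPC replicate 3, -0.075 without LPC replicate 1 and -0.24 without LPC replicate 3, and the count of negative values was 41 without HPC replicate 3 and 39 without LPC replicate 1.

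The snRNP protein genes lay farthest from 0. All 11 tested members had negative log2 fold changes, from -0.35 to -0.11 with a median of -0.27, and 10 of the 11 were lower in HPC in all 3 pairs of equally numbered libraries. Over all 52 genes 28 (53.8%) were lower in all 3 pairs, against 21.3% of all tested genes, and none was higher in all 3, against 19.6%. The median of the snRNP genes was -0.15 without HPC replicate 3 and -0.17 without LPC replicate 2. Whether this family differs from the other families was not tested.

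Of the proteins that belong to 1 kind of snRNP, Snrpa encodes the A protein of the U1 snRNP, which binds a stem-loop of U1 snRNA. Snrpa stood at 48.4, 51.4 and 51.5 CPM in HPC and 65.98, 71.99 and 54.8 CPM in LPC. The HPC libraries lay close together, and the lowest LPC library, replicate 3, was only just above the highest of them. The means were 50.4 ± 1.77 and 64.3 ± 8.71 CPM (SD, n = 3 each), and the gene did not pass (log2 fold change -0.35, SE 0.13, edgeR adjusted p = 0.46).

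Snrpb2 encodes the B″ protein of the U2 snRNP, a relative of the Snrpa product. Its levels were 44.1, 45.05 and 36.2 CPM in HPC and 55.3, 53.98 and 48.5 CPM in LPC. All LPC libraries were above all HPC libraries, and replicate 3 was the lowest in both populations. The log2 fold change was -0.33 (SE 0.13, edgeR adjusted p = 0.48, and 0.12 with the block), and the log2 differences in pairs 1, 2 and 3 were -0.32, -0.26 and -0.42.

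Snrpa1 encodes the A′ protein of the U2 snRNP, the partner of B″. Snrpa1 was at 43.7, 42.6 and 37.9 CPM in HPC and 67.1, 53.1 and 37.3 CPM in LPC. LPC replicate 1 was the highest library, while LPC replicate 3 was the lowest of all 6, and the groups overlapped (log2 fold change -0.34, SE 0.20, edgeR adjusted p = 0.68). Snrpc encodes the C protein of the U1 snRNP, which helps the U1 snRNP to bind the start of the intron, and had the value nearest to 0 in the family, with a log2 fold change of -0.11.

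The 7 genes of the Sm ring, Snrpb, Snrpd1, Snrpd2, Snrpd3, Snrpe, Snrpf and Snrpg, were each lower in HPC in all 3 pairs. Their median difference on the log2 CPM scale was -0.24, -0.25 and -0.32 in pairs 1, 2 and 3. Snrpb, which encodes SmB, was the most abundant, at 258, 257 and 194 CPM in HPC and 291, 306 and 198 CPM in LPC. In both populations replicate 3 stood well below the other libraries, and HPC and LPC overlapped (log2 fold change -0.16, SE 0.19, edgeR adjusted p = 0.85).

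Snrpd2, the SmD2 gene, was at 25.1, 24.2 and 15.9 CPM in HPC and 26.4, 34.1 and 22.5 CPM in LPC. HPC replicate 3 was the lowest library and LPC replicate 2 the highest (log2 fold change -0.35, SE 0.22, edgeR adjusted p = 0.70). Snrpg, the SmG gene, was at 25.8, 29.04 and 20.5 CPM in HPC and 31.9, 34.9 and 25.7 CPM in LPC, and its pair differences of -0.31, -0.26 and -0.32 were nearly equal. The log2 fold changes of the other Sm genes were -0.27 for Snrpd1, -0.24 for Snrpe, -0.23 for Snrpf and -0.21 for Snrpd3, the last averaging 59.2 ± 10.1 CPM over HPC and 68.3 ± 13.1 CPM over LPC (SD, n = 3 each).

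Among the SR protein genes, 9 of 10 lay below 0 in log2 fold change, the median was -0.10, and 4 were lower in HPC in all 3 pairs. No SR gene had groups that did not overlap. The median was -0.054 without HPC replicate 3 and -0.021 without LPC replicate 1.

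Srsf3, the smallest SR protein, which also serves mRNA export, had the lowest value of the family. Srsf3 was at 218, 186 and 134 CPM in HPC and 261, 209.6 and 162 CPM in LPC. Within each population the level was highest in replicate 1 and lowest in replicate 3, and in each pair HPC was below LPC. The difference between populations was smaller than that between replicate numbers (log2 fold change -0.23, SE 0.22, edgeR adjusted p = 0.81). Srsf7, its closest relative with a zinc knuckle, was at 159, 169 and 117 CPM in HPC and 206, 169 and 132 CPM in LPC, in the same order of replicate numbers save for a slightly higher HPC replicate 2, with a log2 fold change of -0.19.

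Srsf5 varied in another way. Its levels were 223, 201 and 209 CPM in HPC and 216, 233 and 281 CPM in LPC. LPC replicate 3, the lowest LPC library for 6 of 10 SR genes, was the highest of all for Srsf5, and the pair differences were 0.048, -0.21 and -0.43 (log2 fold change -0.20, SE 0.13, edgeR adjusted p = 0.69). Its relatives Srsf4 and Srsf6, which share its pair of RNA recognition motifs, had log2 fold changes of -0.045 and -0.12, and Srsf6 averaged 306 ± 30.04 CPM over HPC and 333 ± 13.4 CPM over LPC (SD, n = 3 each).

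Srsf1, the first SR protein described and one that can act as an oncogene when overproduced, had the highest mean level of the family and the sole positive value. Srsf1 was at 409, 451 and 352 CPM in HPC and 447, 361 and 364 CPM in LPC. HPC replicate 2 and LPC replicate 1 were the highest libraries and the groups overlapped widely (log2 fold change 0.048, SE 0.14, edgeR adjusted p = 0.96), and the sign of the log2 fold change turned without HPC replicate 2 (-0.038). Srsf9, its near relative, had a log2 fold change of -0.085. Srsf2, which binds enhancers with G or C rich motifs, was at 339, 357 and 297 CPM in HPC and 423, 354 and 314 CPM in LPC, with LPC replicate 1 the highest library (log2 fold change -0.14). Srsf10, which represses splicing when dephosphorylated, and Srsf11, an SR-related protein, had log2 fold changes of -0.077 and -0.027, and both turned positive without LPC replicate 1, at 0.083 and 0.044, and without HPC replicate 3, at 0.014 and 0.020.

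Of the 20 hnRNP genes, 19 lay below 0 in log2 fold change, the median was -0.17, and Hnrnpa0, Hnrnpa3 and Hnrnpdl had all LPC libraries above all HPC libraries. Over the 52 genes there were 6 of this kind (11.5%, with Snrpa, Snrpb2 and U2af1l4), against 7.18% of all tested genes, and none with all HPC libraries above all LPC libraries, against 7.16%. The hnRNP median was -0.071 without HPC replicate 3 and -0.083 without LPC replicate 1.

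In the A group, Hnrnpa2b1, an abundant nuclear protein that also sorts RNA for transport, had the highest mean level of the 52 genes. Hnrnpa2b1 was at 1526, 1266 and 992 CPM in HPC and 1620.0, 1350.0 and 1140.0 CPM in LPC. The libraries stood in the same order in both populations, replicate 1 first and replicate 3 last, and each HPC library was a little below the LPC library of its number (log2 fold change -0.12, SE 0.19, edgeR adjusted p = 0.90). Its sign turned without HPC replicate 3 (0.028) or LPC replicate 1 (0.020). Hnrnpa0, an A group protein that binds AU-rich elements, was at 176, 187 and 180.1 CPM in HPC and 219, 225 and 196 CPM in LPC. The groups did not overlap and replicate numbers made little difference (log2 fold change -0.24, SE 0.10, edgeR adjusted p = 0.53).

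Hnrnpa3 was at 73.4, 79.01 and 74.9 CPM in HPC and 93.5, 84.5 and 81.9 CPM in LPC, again without overlap (log2 fold change -0.19). Hnrnpa1, the classical antagonist of Srsf1 in the choice of splice sites, was at 35.1, 29.1 and 21.5 CPM in HPC and 34.9, 34.3 and 30.1 CPM in LPC, and differed between pairs, with 0.0086, -0.24 and -0.48 in pairs 1, 2 and 3. HPC replicate 3 was its lowest library.

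In the D group, whose proteins bind AU-rich RNA, Hnrnpd had the lowest log2 fold change of the hnRNP genes. Hnrnpd was at 82.9, 92.5 and 75.4 CPM in HPC and 128, 95.9 and 83.3 CPM in LPC. LPC replicate 1 stood above the other 5 libraries, which overlapped (log2 fold change -0.29, SE 0.17, edgeR adjusted p = 0.68), and the pair differences were -0.63, -0.052 and -0.14. Hnrnpdl was at 118, 116 and 99.2 CPM in HPC and 149, 121 and 121 CPM in LPC, with a log2 fold change of -0.23, and Hnrnpab, the most abundant of the group, at 848, 898 and 725 CPM in HPC and 1011, 886 and 704 CPM in LPC, with a log2 fold change of -0.074 that turned positive without HPC replicate 3 (0.011) or LPC replicate 1 (0.052).

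Hnrnpll, a regulator of the alternative exons of Ptprc in lymphocytes, was at 136, 131 and 116 CPM in HPC and 171, 149.9 and 134 CPM in LPC, and its lowest LPC library was just under its highest HPC library (log2 fold change -0.25, SE 0.13, edgeR adjusted p = 0.62). Its relative Hnrnpl had a log2 fold change of -0.15. Hnrnpc, which covers uridine tracts and keeps cryptic exons out, Hnrnpk, which binds C-rich RNA and DNA, and Hnrnpm had values of -0.21, -0.21 and -0.21, and each was lower in HPC in all 3 pairs. Hnrnph1, which binds runs of G, stood at -0.21, and its relatives Hnrnpf, Hnrnph3 and Hnrnph2 at -0.14, -0.15 and 0.036. Hnrnpu, a scaffold protein of chromatin and RNA, was at 778, 826 and 616 CPM in HPC and 996, 799.8 and 651 CPM in LPC, with LPC replicate 1 far above the rest (log2 fold change -0.14). The values were -0.0060 for Hnrnpul1, -0.086 for Hnrnpul2 and -0.11 for Hnrnpr, which was at 0.023 without LPC replicate 1 and -0.22 without LPC replicate 3.

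The SF3 genes lay nearest to 0. Of the 8, 7 lay below 0 in log2 fold change, with the median at -0.038 and a range from -0.12 for Sf3b3 to 0.060 for Sf3a1, and 1 was lower in HPC in all 3 pairs. The sign of the median turned without LPC replicate 1 (0.021). The median was -0.0074 without HPC replicate 3, -0.025 without LPC replicate 2, -0.077 without HPC replicate 2 and -0.12 without LPC replicate 3. Sf3b1, the branch point protein that is mutated in uveal melanoma and myeloid disease, was at 580.1, 609 and 604 CPM in HPC and 626, 569 and 629.5 CPM in LPC. The 6 libraries lay close together and the groups overlapped (log2 fold change -0.025, SE 0.10, edgeR adjusted p = 0.97). Sf3b2, its partner, was as even, at 326, 323 and 351 CPM in HPC and 335, 350.0 and 331 CPM in LPC. Sf3a1, which joins SF3A to the U2 snRNP, was at 237, 239.7 and 225 CPM in HPC and 240.5, 228 and 204 CPM in LPC, with LPC replicate 3 the lowest library (log2 fold change 0.060, SE 0.11, edgeR adjusted p = 0.92). Sf3b4, Sf3b5, Sf3a2 and Sf3a3 had log2 fold changes of -0.048, -0.028, -0.083 and -0.083, and each changed sign in some fits that left out libraries.

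U2af1 and U2af2 encode the small and the large subunit of U2AF, and U2af1l4 a relative of the small subunit. U2af2 was at 134, 141 and 117 CPM in HPC and 166, 152 and 114 CPM in LPC, with LPC replicate 3 the lowest library (log2 fold change -0.14). U2af1 was at 12.1, 10.2 and 9.66 CPM in HPC and 12.4, 11.8 and 11.99 CPM in LPC (log2 fold change -0.18). U2af1l4 was at 21.8, 21.6 and 20.3 CPM in HPC and 22.9, 23.6 and 23.1 CPM in LPC, with a small gap between the groups (log2 fold change -0.13). The counts of U2af1l4 are uncertain, since the last 200 bases of its longest coding transcript are shared in full with Gm49396, a same-strand gene that overlaps it.

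**Figure D2:**
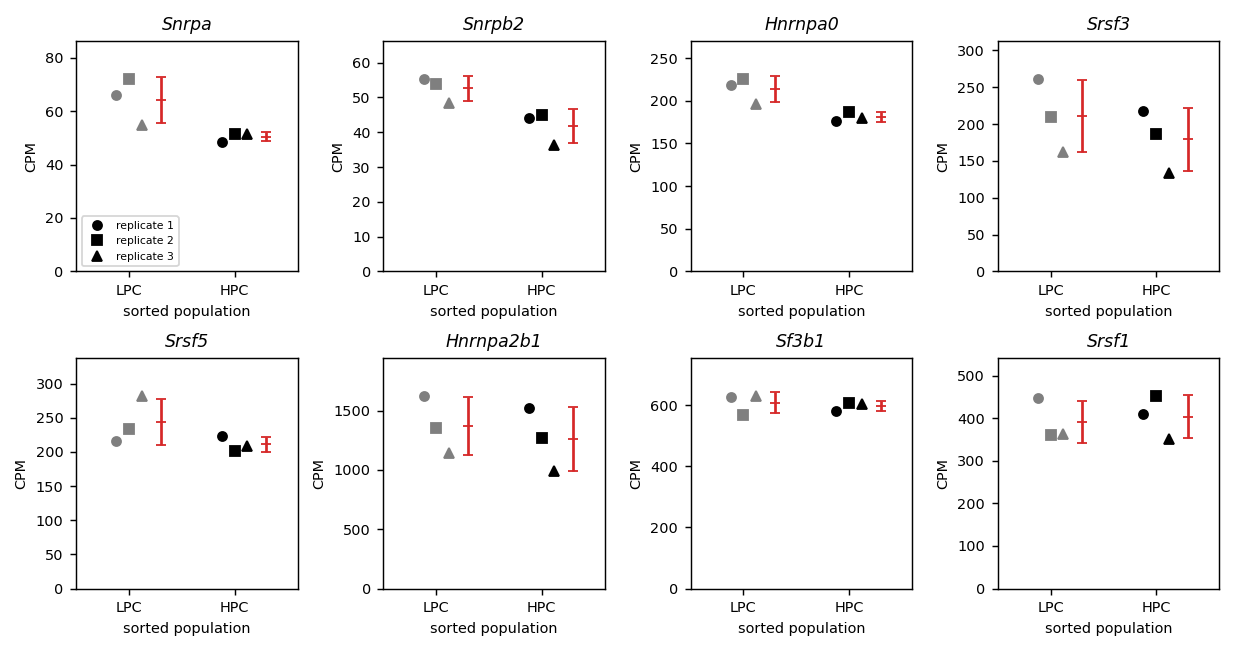
Levels in CPM (vertical axes, from 0) of 8 genes in LPC (grey) and HPC (black), with the marker giving the replicate number and the red bar the mean ± SD of 3 libraries. Snrpa, Snrpb2 and Hnrnpa0 show no overlap between populations, Srsf3 and Hnrnpa2b1 keep the same order of replicate numbers in both, Srsf5 is highest in LPC replicate 3, and Sf3b1 and Srsf1 overlap.

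Libraries also differed by replicate number. For each gene the variance of log2 CPM over the 6 libraries was divided between population, replicate number and the remainder, as a description without a test. The replicate number took a median of 62.5% over the 52 genes and the population 17.4%, against 52.4% and 16.5% over all tested genes, and the share of the replicate number was the larger for 40 of the 52 genes (76.9%), against 72% of all tested genes. With 3 numbers against 2 populations, the first share is larger in part by construction.

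The direction was common to most of the 52 genes. Replicate 3 was the lowest library of its own population in both HPC and LPC for 36 of the 52 genes (69.2%), against 22.1% of all tested genes, and for 10 of 11 snRNP genes. The median of their deviations from each gene's mean, in log2 units, was -0.0046, 0.019 and -0.22 for HPC and 0.21, 0.11 and -0.10 for LPC, while that of all tested genes stayed within 0.0233 of 0. Hnrnpa2b1 (91.8%), Sf3b5 (92.7%) and Snrpb (87.8%) had some of the highest shares for the replicate number, whereas the population took 77.5% for U2af1l4, 76.2% for Hnrnpa0, 67.9% for Snrpb2, 67.7% for Hnrnpa3 and 67.1% for Snrpa.

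**Figure D3:**
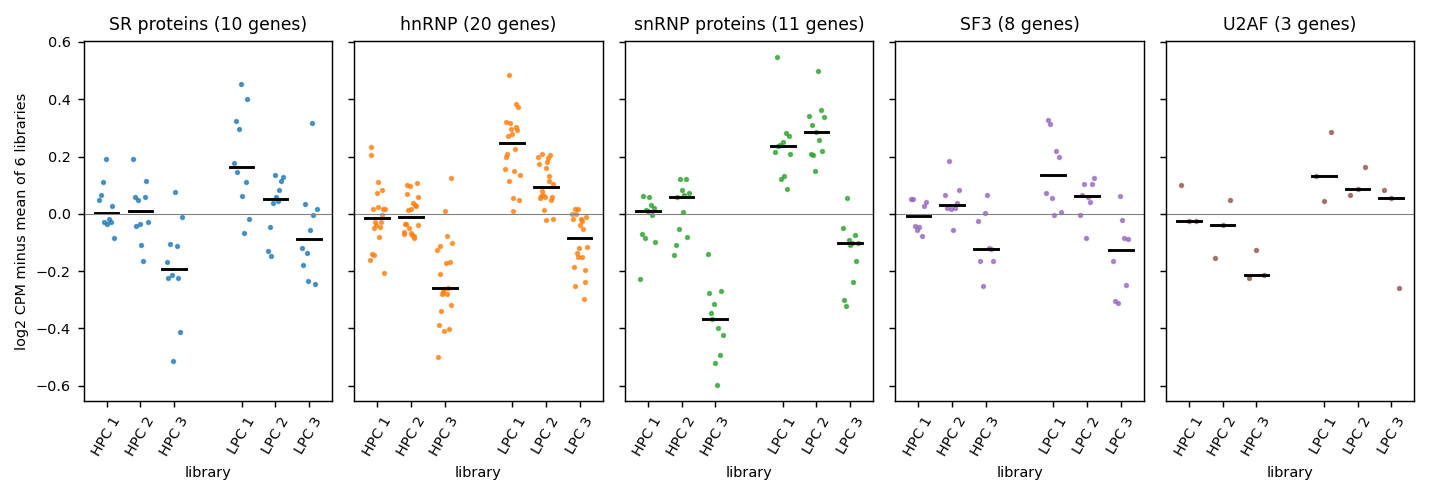
Deviation of log2 CPM from the mean of the 6 libraries (vertical axis) for every tested gene (points) in each library (horizontal axis), by family, with the median as a black bar. In every family replicate 3 has the lowest median within both HPC and LPC, and LPC replicate 1 or 2 the highest of all 6.

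Pair by pair, the median difference of the 52 genes was widest in the libraries numbered 1. It was -0.25 in pair 1, -0.12 in pair 2 and -0.11 in pair 3, with 48, 41 and 38 genes lower in HPC, while the medians of all tested genes were 0.0016, -0.012 and -0.0089. The snRNP genes kept about the same median in all pairs, at -0.25, -0.26 and -0.22. The U2AF genes were at -0.071, -0.13 and -0.18, widest in pair 3. The hnRNP genes were at -0.26, -0.12 and -0.13, and the SR genes at -0.13, -0.012 and -0.11. The SF3 genes were at -0.14, -0.033 and 0.073, and 5 of 8 were higher in HPC in pair 3.

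Cell cycle genes differed between pairs too. A list of 15 mitosis genes had median differences of -0.096, 0.65 and 0.99 in pairs 1, 2 and 3, and 15 DNA replication genes -0.45, 0.15 and 0.43. The mitosis genes summed to 3286, 4397 and 3410.0 CPM for HPC and to 3548, 2672 and 1745 CPM for LPC, with LPC replicate 3 the lowest. The 52 genes were lowest in HPC replicate 3, with a median deviation of -0.22, against -0.10 in LPC replicate 3. In HPC replicate 3 the median deviation of the mitosis genes was 0.14. That of the DNA replication genes was -0.0126, 0.248 and -0.115 in HPC and 0.434, 0.0599 and -0.605 in LPC. Like the 52 genes, the DNA replication genes were highest in LPC replicate 1 and, within each population, lowest in replicate 3. Their lowest library of all was LPC replicate 3. The part of these cell cycle differences in the levels of the splicing factor genes was not tested.

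**Figure D4:**
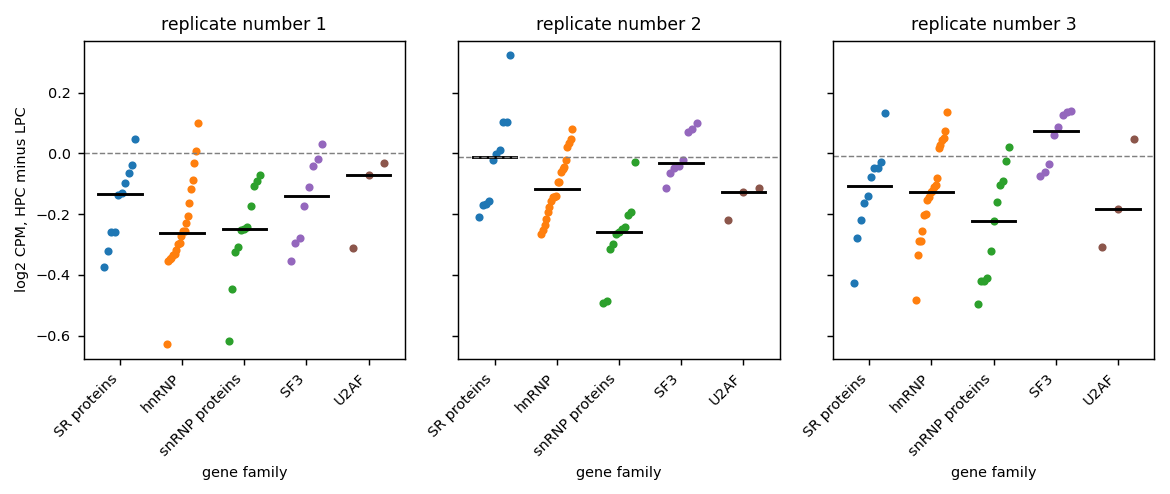
Difference in log2 CPM, HPC minus LPC (vertical axis), of each tested gene (points) in each pair of equally numbered libraries, by family (horizontal axis), with the family median as a black bar and the median of all tested genes as a dashed line. The snRNP points lie below the dashed line in pairs 1 and 2 and, save for 1 gene, in pair 3, whereas the SF3 median lies below it in pair 1 and above it in pair 3.

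Over all 6 libraries, the other parts of the splicing machinery showed less of the tilt, but in pair 1 they shared it. Of 117 tested genes in 6 further lists, 80 (68.4%) lay below 0, and the median was -0.053. Their median difference was -0.17, -0.022 and -0.0088 in pairs 1, 2 and 3, with 95, 64 and 61 genes lower in HPC. In pair 1 the median of the 52 genes was -0.25. None of the 117 was called by edgeR, with or without the block, or by DESeq2. At an unadjusted p under 0.05 in edgeR, 2 (1.71%) were lower in HPC, against 4.31% of all tested genes, and none was higher, against 5.06%. With the block 10 (8.55%) were lower, against 8.66%, and none was higher, against 10.1%. The U4/U6.U5 and Prp19 proteins, which form the catalytic spliceosome, had 14 of 24 negative values and a median of -0.017. Their lowest p values were those of Dhx8, a helicase that frees the spliced mRNA (log2 fold change 0.13, SE 0.11, edgeR adjusted p = 0.78), and Xab2 (log2 fold change -0.14). Lsm proteins, most of which bind U6 snRNA or act in mRNA decay, had 6 of 9 negative values and a median of -0.014. Lsm4 was at 73.9, 84.2 and 70.8 CPM in HPC and 88.04, 116 and 75.3 CPM in LPC, with LPC replicate 2 the highest library, and Lsm7, at under 1.3 CPM in all libraries, had a log2 fold change of -0.66.

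Of 8 kinase genes whose products phosphorylate SR proteins, 5 had negative values, with a median of -0.029. Clk1, a kinase that releases SR proteins from nuclear speckles, was at 124, 92.6 and 103 CPM in HPC and 126, 115 and 163 CPM in LPC. LPC replicate 3 was its highest library, as for Srsf5, and the groups overlapped (log2 fold change -0.34, SE 0.17, edgeR adjusted p = 0.61). Srpk1, which phosphorylates SR proteins in the cytoplasm, had a log2 fold change of -0.12.

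Of the further lists, other splicing regulators had the median closest to that of the 52 genes, -0.10, with 35 of 46 negative values. Luc7l3, a U1-associated protein, was at 177, 153 and 158 CPM in HPC and 204, 179 and 230.5 CPM in LPC and Raly, an hnRNP C relative outside the symbol rule, at 259, 279 and 240.1 CPM in HPC and 327, 369 and 279 CPM in LPC. In both, every LPC library was above every HPC library, but only by a narrow gap. The lowest LPC and highest HPC libraries were at 178.6 and 177.4 CPM for Luc7l3 and both at 278.7 CPM, as rounded, for Raly. In this list 6 of 46 genes (13%) were of this kind, against 7.18% of all tested genes, and 1 (2.17%) was the reverse, against 7.16%. Neither gene passed (edgeR adjusted p = 0.49 for Luc7l3 and 0.50 for Raly). Genes of the exon junction complex and nonsense-mediated decay had 10 of 17 negative values and a median of -0.037, with Upf3a at -0.21 and Pnn at -0.18. Genes of the SMN complex and of Sm methylation, which load the Sm ring onto snRNA, had 10 of 13 negative values and a median of -0.083. The median difference of this list was -0.33, 0.048 and -0.00074 in pairs 1, 2 and 3. Smn1, the survival motor neuron gene, was at 23.1, 27.01 and 20.2 CPM in HPC and 30.2, 30.8 and 23.1 CPM in LPC (log2 fold change -0.26), and Wdr77, the partner of the methyltransferase Prmt5, had a log2 fold change of -0.21.

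All 54 identifiers were found in GENCODE M21 on GRCm38. Snrpa (ENSMUSG00000061479) lies at chr7:27187005-27196271 (minus strand), Snrpb2 (ENSMUSG00000008333) at chr2:143063039-143072853 (plus strand) and Hnrnpa0 (ENSMUSG00000007836) at chr13:58125879-58128556 (minus strand). Srsf3 (ENSMUSG00000071172) lies at chr17:29032628-29043373 (plus strand), Srsf5 (ENSMUSG00000021134) at chr12:80945504-80950507 (plus strand), Srsf1 (ENSMUSG00000018379) at chr11:88047373-88053755 (plus strand), Hnrnpa2b1 (ENSMUSG00000004980) at chr6:51460932-51469894 (minus strand) and Sf3b1 (ENSMUSG00000025982) at chr1:54985169-55027481 (minus strand). The 52 tested genes are spread over 18 chromosomes. A gene on the same strand overlaps 11 of them and a gene on the opposite strand 21, such as BC024978 for Snrpa and Gm11508 for Srsf1, and 25 have no overlapping gene. Since the use of strand in counting is not given in the sources used here, counts of the overlapped genes may include reads of their neighbours. For 50 of the 52, no run of 31 bases in the last 200 bases of the longest coding transcript occurs in an annotated transcript of another gene. The exceptions are U2af1l4 and U2af1, of whose runs 23.5% are shared with Gm10232 and Gm18959. Without U2af1l4, 48 of 51 genes lay below 0, and the median was -0.15.

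A feature shared by many of the genes is an annotated transcript subject to nonsense-mediated decay. GENCODE lists at least 1 for 27 of the 52 tested genes (51.9%), against 29.8% of the 11704 tested protein-coding genes matched. The share was 9 of 10 SR genes, all 3 U2AF genes, 10 of 20 hnRNP genes, 4 of 11 snRNP genes and 1 of 8 SF3 genes, Sf3b1. The 52 genes have a median of 6.5 annotated transcripts, against 5 for those protein-coding genes, so more isoforms of any kind are listed for them. Counts summed per gene do not separate these isoforms, so the levels given here hold for all counted transcripts of a gene, whichever 3′ end they use.

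Promoters were searched because the genes lay on the same side of 0. RefSeq promoter sequences on GRCm38.p6, of 300 bases with 250 before the transcript start, were matched by symbol for 45 of the 52 tested genes, with 60 promoters between them. The unmatched genes were Hnrnpll, Hnrnpul2, Sf3b4, Sf3b5, Snrpb, Snrpd1 and U2af2. In all, 7 motifs were searched on both strands. CCGGAAG, the core recognised by ETS family factors, was in 20 of the 60 promoters (33.3%), against 17.6% of the 11497 promoters of tested genes and 8.86% of all 32851. CACGTG, the E-box bound by Myc and by Mitf, was in 11.7%, against 10.0% of promoters of tested genes and 7.15% of all, and the genes with it were Hnrnpa3, Hnrnpd, Hnrnpf, Hnrnph2, Hnrnpm and Snrpa. The share of the member promoters, followed by that of tested genes' promoters and that of all promoters, was 48.3%, 37.9% and 37.4% for CCAAT, 71.7%, 63.5% and 35.7% for GGGCGG, 10.0%, 6.69% and 13.6% for TATAAA, 6.67%, 5.4% and 2.71% for GCATGCGC, and 6.67%, 1.86% and 0.919% for CTCGCGAG, which was in Hnrnph1, Srsf4 and Srsf10. None of the 7 motifs is contained in another, though matches may overlap.

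Matches to CCGGAAG were unevenly spread over the families. The motif was present for 5 of the 6 matched SF3 genes, the family nearest to 0, for 4 of 9 snRNP genes, the family farthest from 0, for 4 of 10 SR genes, for 2 of 18 hnRNP genes and for 0 of 2 U2AF genes. Snrpb2 and Srsf5 each hold a second match outside the stretch shown. The stretches shown are those of 3 SF3 genes (Sf3b2, Sf3b3 and Sf3a1), of Snrpb2 and of Srsf5 and Srsf7, with the match in capitals (CTTCCGG is the motif on the opposite strand), each 5′ to 3′ along its gene.
Sf3b2 (chr19:5295456-5295504, minus strand): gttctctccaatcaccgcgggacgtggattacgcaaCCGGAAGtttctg
Sf3b3 (chr8:110846974-110847053, minus strand): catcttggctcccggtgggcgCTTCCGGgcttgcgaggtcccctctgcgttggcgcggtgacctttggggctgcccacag
Sf3a1 (chr11:4160324-4160353, plus strand): tgcgaaacggcgagagggcgggaCCGGAAG
Snrpb2 (chr2:143063029-143063058, plus strand): tttggccgccctCTTCCGGcgcggggaagc
Srsf5 (chr12:80945373-80945452, plus strand): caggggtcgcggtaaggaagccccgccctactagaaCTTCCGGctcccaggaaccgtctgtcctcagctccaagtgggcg
Srsf7 (chr17:80207476-80207555, minus strand): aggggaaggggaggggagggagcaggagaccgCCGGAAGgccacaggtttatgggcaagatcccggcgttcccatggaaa

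For CACGTG, the stretches of Snrpa and Hnrnpa3 are shown because LPC and HPC did not overlap for them, and that of Hnrnpd because it has the lowest value of the hnRNP genes. Snrpa holds a second match outside the stretch, and another of its promoters holds a match too. The capitals mark the match, and a match describes letters in this window and not a site in use.
Snrpa (chr7:27196301-27196380, minus strand): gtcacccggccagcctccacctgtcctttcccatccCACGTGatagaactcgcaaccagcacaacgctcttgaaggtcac
Hnrnpa3 (chr2:75659205-75659258, plus strand): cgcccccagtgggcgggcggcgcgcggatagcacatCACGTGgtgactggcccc
Hnrnpd (chr5:99978939-99979006, minus strand): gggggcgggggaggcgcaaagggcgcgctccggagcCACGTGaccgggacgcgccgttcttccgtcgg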

How the data were processed

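Raw gene counts, whole and not normalized, were deposited by the authors in 1 table with a column for each of 6 libraries. The libraries were QuantSeq 3′ mRNA-Seq FWD from total RNA, per the labels' protocols, and STAR and GRCm38 are named per the submitters' processing notes. Not given in the sources used here are the counter, the annotation release, the strand setting and any molecular identifiers.

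Columns were matched to samples by name. Genes passed edgeR's filterByExpr (11921 left), and counts were scaled by TMM and tested with edgeR (version 4.0.16 under R 4.3.3) by its quasi-likelihood method, group as the only term, adjusted by Benjamini-Hochberg over all tested genes. DESeq2 1.42.0, limma-voom (limma 3.58.1), other scalings and filters, the block and fits without each library or pair were the alternatives. SEs come from the F statistic and intervals are 95%. Differences per pair use log2 CPM with a prior count of 2. The fits were tested on simulated data that held no effect of the replicate number, so that test does not bear on such an effect.

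The numbers pair the libraries by the data: deviations from group means correlated at 0.425, 0.353 and 0.651 for numbers 1, 2 and 3, above the minimum of 0.1. No label states a shared source, so the pairing is a hint. Blocked values are given where they differ in call.

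The members and lists were chosen with earlier results of these data known. Named genes are members called with all 6 libraries by edgeR, with or without the block, or by DESeq2 without it (none). Also named are the 3 most abundant of each family and all Srsf genes. At a mean of at least 5 CPM, the 6 highest and 6 lowest log2 fold changes and the 6 lowest p were added. Tyr and, in each further list, the 2 lowest p complete the rule. The remaining members were named so that each is accounted for. The variance shares, promoter motifs, subgroups of families and 3′ end check were added after the values were seen. Annotation is GENCODE M21.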

Additional observations from a re-analysis of the deposited data

How the results depend on the processing

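No setting with all 6 libraries called any of the 52 genes. The count of all genes called, 5 with edgeR, was 28 with no filter, 224 with DESeq2, 301 with the replicate block and 500 with DESeq2 and the replicate block. Leaving out 1 library without the block gave 0 to 43 calls over all genes and 0 among the 52. With the replicate block and without 1 pair there were 0 (without pair 2), 196 (without pair 3) and 2947 (without pair 1) calls over all genes and 0 to 7 among the 52, each fit with 1 residual degree of freedom. The snRNP median, -0.27, was -0.30 with upper quartile scaling and -0.29 with library size only. Without 1 library at a time, with or without the pairs, the median of the 52 genes ran from -0.24 to -0.069, of SR genes from -0.17 to -0.021, of hnRNP genes from -0.25 to -0.071, of snRNP genes from -0.38 to -0.15, of SF3 genes from -0.12 to 0.034 and of U2AF genes from -0.19 to -0.095. The block with all libraries changed the call of no member. Hnrnpul1 turned sign with no filter (0.0063). Other signs turned only when libraries were left out. Without 1 library at a time, the log2 fold change ran from -0.0382 to 0.16 for Srsf1, from -0.18 to 0.0834 for Srsf10, from -0.0908 to 0.0442 for Srsf11, from -0.27 to 0.0275 for Hnrnpa2b1, from -0.20 to 0.0523 for Hnrnpab and from -0.00465 to 0.079 for Hnrnph2. It ran from -0.28 to 0.0295 for Hnrnpu, from -0.0721 to 0.0939 for Hnrnpul1, from -0.00223 to 0.11 for Sf3a1, from -0.0595 to 0.00338 for Sf3b1 and from -0.0611 to 0.0126 for Sf3b2. With the replicate block it was 0.043 for Hnrnpab, 0.0313 for Sf3b1, 0.12 for Hnrnpul1 and 0.0417 for Srsf10 without pair 1, -0.0895 for Srsf1, 0.0219 for Sf3b2 and 0.0158 for Srsf4 without pair 2 and 0.0341 for Srsf11 without pair 3. Signs also turned for Hnrnpr, Snrpc, Sf3a2, Sf3a3, Sf3b4 and Sf3b5 without a library or pair, with highest values of 0.0228, 0.0062, 0.0775, 0.082, 0.0436 and 0.0446. The cause was not tested. With 3 libraries a group, SEs of the 52 log2 fold changes were 0.0993 to 0.222, so differences of the size seen here did not pass after adjustment.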
